A study of Homo sapiens with 8 samples.

Results

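The genes described here serve the endoplasmic reticulum (ER), the compartment in which secreted and membrane proteins are folded, and the unfolded protein response (UPR) that watches over it. They were taken from a list of 48 genes by name. This list and the further gene lists below were chosen with earlier results of these data known. Their shares beside those of all genes are therefore descriptions, not tests. Each gene was read by 1 probe set, the brightest on average among those annotated to exactly 1 gene symbol. Of the 48 genes, 44 were measured in this way, among 19775 genes in all: 18 of 20 chaperones and folding enzymes, 9 of 10 degradation genes, 4 of 4 sensors and an ER membrane regulator, 3 of 3 CREB3-type transcription factors, 6 of 6 genes of protein translocation and glycosylation, and 4 of 5 of vesicle transport and retrieval. PDIA5, SYVN1, TXNDC5 and KDELR2 were not analysed here, the first 3 of these because their probe sets carry several symbols.

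The cells were MDA-MB-453, an established human line from a breast tumour that carries the androgen receptor, and were held for 3 days in medium without phenol red and with 5% serum stripped of steroids by charcoal and dextran. Cultures were given either vehicle or DHT (5α-dihydrotestosterone, a potent natural androgen) at 10 nM, the latter for 4 h, 16 h or 48 h. Total RNA of 2 biological replicates per group was hybridised to Affymetrix arrays, 8 arrays in all. No time is stated in the labels for vehicle, so the effects of DHT and of time in culture cannot be told apart. All values are log2 signals from RMA, and 1 log2 unit is a doubling of the signal. Signals of different probe sets cannot be set against each other, so each gene is compared only with itself. In RNA from whole cultures, fewer cells that make a transcript and less of it per cell cannot be told apart.

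The androgen target FKBP5 checked the labels: its log2 signal was 10.81 and 10.67 with vehicle, 11.72 and 11.72 at 4 h, 13.14 and 13.25 at 16 h, and 13.97 and 14.18 at 48 h. ERBB2, KRT8, KRT18 and FOXA1, which mark luminal cells with amplified ERBB2, lay between 11.64 and 13.92 on every array. Of these, 2 fell at 48 h: ERBB2 went from 13.47 and 13.53 with vehicle to 12.85 and 12.85 (log2 change -0.65, adjusted p = 0.000929), and FOXA1 from 12.36 and 12.51 to 11.64 and 11.78 (-0.72, adjusted p = 0.000638); ERBB2 had also fallen at 16 h (-0.47). Of 8 markers of basal, mesenchymal, immune and endothelial cells, 1 was called against vehicle at any time: the basal keratin KRT5, at 8.13 and 8.18 with vehicle and 8.71 and 8.61 at 48 h. The part of these 3 genes' changes in the results below was not tested. DHT 16 h replicate 2 stood apart from the other 7 arrays, at -23.06 on the second principal component (16.1% of the variance) against -0.51 to 10.84. Its 3′ control probe set for ACTB exceeded the 5′ one by 1.52 log2 units, against 0.20 to 0.94 on the others, so several of the larger 16 h changes are given with and without it.

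Proteins enter the ER through the SEC61 channel, are glycosylated as they arrive, and fold with the help of chaperones such as HSPA5 (BiP) and of disulfide isomerases. Folded cargo leaves in COPII vesicles, and misfolded chains are drawn back to the cytosol and degraded. When unfolded proteins accumulate, the sensors ERN1 (IRE1), EIF2AK3 (PERK) and ATF6 switch on chaperone and degradation genes and slow translation. CREB3-type factors are ER membrane proteins that, like ATF6, are cut in the Golgi to free a transcription factor, and they drive secretory genes. In secretory epithelia such as breast and prostate this machinery sets how much protein a cell can export.

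Calls were few, small and late. At 4 h, 0 of the 44 genes were called by limma, against 0.177% of all genes (0.106% higher and 0.0708% lower); 5 had an unadjusted p below 0.05 (11.4%, against 7.84%), all with a lower signal. At 16 h, 2 genes rose (4.55% of the 44, against 2.55% of all genes) and 2 fell (4.55%, against 4.3%), together 9.09% against 6.85%; 14 had an unadjusted p below 0.05 (31.8%, against 19.9%). At 48 h, 6 rose (13.6%, against 3.13%) and 1 fell (2.27%, against 6.38%), together 15.9% against 9.51%; 18 had an unadjusted p below 0.05, 17 of them higher (40.9%, against 22% of all genes). The median log2 change of the 44 genes was -0.07 at 4 h, 0.05 at 16 h and 0.20 at 48 h, beside medians over all genes of 0.00, 0.02 and 0.008. Of the 44 genes, 43 were among the brighter genes, those with a mean signal above that of the median gene. With the dim genes left out of the fit, 0 of 43 were called at 4 h, against 0.577% of the genes kept. At 16 h 4 of 43 were called, against 15%, and at 48 h 10 of 43, against 18.7%. The largest called change of a member was 0.58, for DNAJC10 at 48 h. The counts rest on few arrays: at 16 h the count of calls was 0 without vehicle replicate 1, 2 without vehicle replicate 2 or either 4 h array, 7 (3 higher and 4 lower) without DHT 16 h replicate 1, and 1 without DHT 16 h replicate 2 or either 48 h array. At 48 h it was 3 without either vehicle array, 5 without either 4 h array, 10 without either 16 h array, and 2 and 3 without DHT 48 h replicate 1 and 2.

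The signs of the changes turned between 4 h and 48 h, and differed most from those of all genes at 4 h. At 4 h, 8 of the 44 log2 changes lay above 0 (18.2%, against 50.9% of all genes), at 16 h 25 did (56.8%, against 56.3%), and at 48 h 31 did (70.5%, against 52.8%). Of the 44 genes, 25 had their highest group mean at 48 h (56.8%, against 26.5% of all genes), and 16 had both their lowest mean at 4 h and their highest at 48 h (36.4%, against 8.39%). These counts share the same vehicle arrays and are descriptions, not tests. The median log2 change at 4 h was small and moved with the scaling. It was -0.07 in the main fit, -0.06 with quantile normalization and -0.02 with equal housekeeping signal. The signs were not counted again under those scalings or among the brighter genes alone. At 48 h, 24 genes had both DHT arrays above both vehicle arrays, where 25.8% of all genes did, and 9 had both below, where 26.1% of all genes did. Tested jointly at the 3 times by limma's F test, changes from vehicle were called for 9 of the 44 genes (20.5%, against 8.9% of all genes), and 21 had an unadjusted p below 0.05 (47.7%, against 21% of all genes). The 9 were HSP90B1, PDIA4, PDIA6, DNAJB9, DNAJC10, WFS1, CREB3L2, SEC61A1 and SSR3. With dim genes left out, the F test called 14 of 43, against 18.3% of the genes kept.

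**Figure D1:**
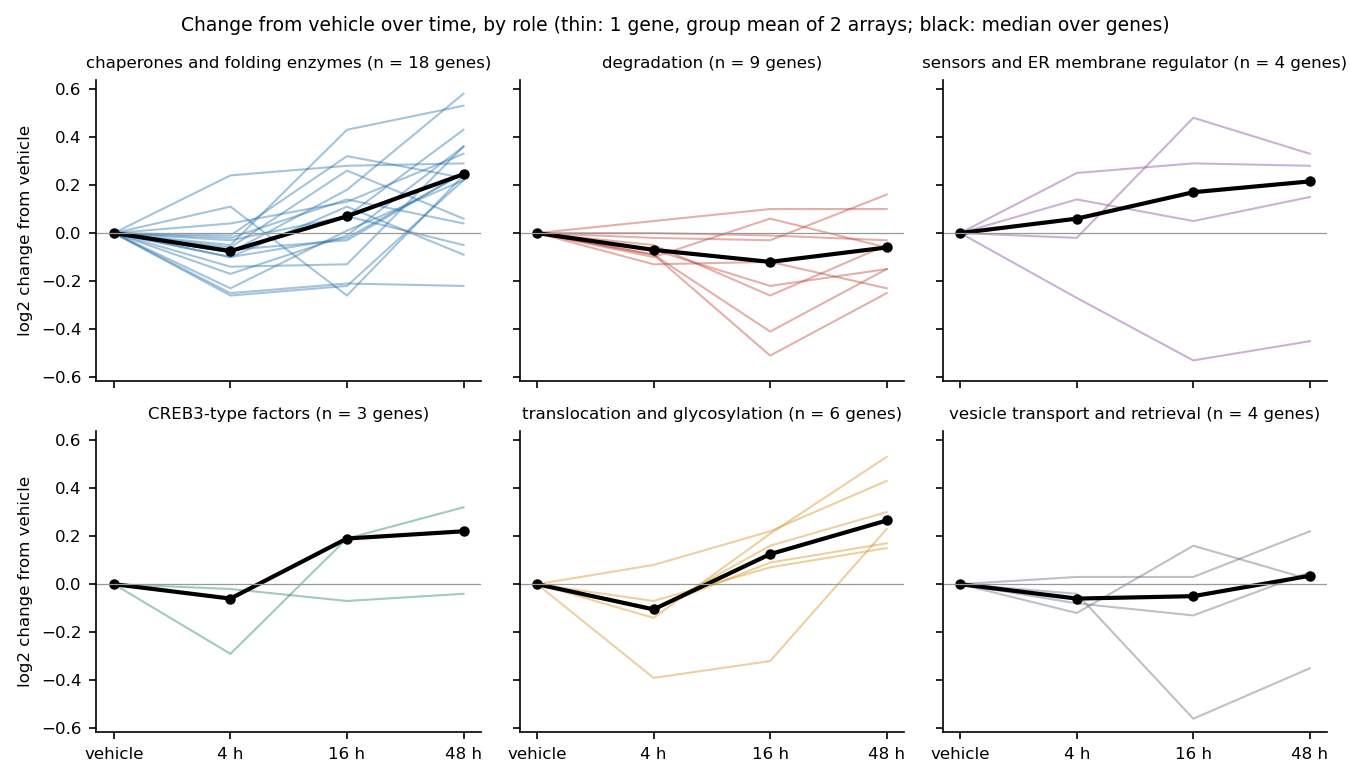
Log2 change from vehicle (y axis) at vehicle, 4 h, 16 h and 48 h of DHT (x axis, evenly spaced) for the 44 measured genes, split by role; each thin line is the group mean of 2 arrays for 1 gene and the black line is the median over genes. The chaperone median ends at 0.25 and the translocation and glycosylation median at 0.26, while the degradation median is -0.12 at 16 h and -0.06 at 48 h.

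Chaperones and folding enzymes held most of the calls at 48 h. Of 18, 4 rose (22.2%, against 3.13% of all genes), 0 fell (against 6.38%) and 14 were not called. Their median log2 change was 0.25. The shares of all genes set beside the roles, here and below, include dim genes, which were called less often. With dim genes left out of the fit, 18.7% of the genes kept were called either way at 48 h. DNAJC10 (ERdj5), a J-domain protein that reduces disulfide bonds, read 10.89 and 10.91 with vehicle, 10.90 and 10.74 at 4 h, 11.09 and 11.07 at 16 h, and 11.41 and 11.56 at 48 h. Both 48 h arrays were above all 6 others, and the gene rose by 49.6%, a log2 change of 0.58 (SE 0.10, with n = 2 arrays per group and adjusted p = 0.00279). This call held without each of the 8 arrays in turn (adjusted p up to 0.0324). Its 4 other probe sets, all dimmer, gave 0.71, 0.40, 0.69 and -0.18, none of them called, and the 2 dimmest gave 0.69 and -0.18.

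DNAJB9 (ERdj4), a J-domain partner of HSPA5 that targets misfolded chains and restrains ERN1, changed earlier. Its signal was 9.02 and 8.82 with vehicle, 8.98 and 8.77 at 4 h, 9.43 and 9.27 at 16 h, and 9.38 and 9.52 at 48 h, so the 4 later arrays all lay above the 4 earlier ones. It rose by 0.43 ± 0.11 at 16 h (adjusted p = 0.0456) and by 0.53 ± 0.11 at 48 h (adjusted p = 0.0128), and the step from 4 h to 16 h was itself called (0.48 ± 0.11, adjusted p = 0.0494). The 16 h calls, against vehicle and against 4 h, were lost without any 1 of the 8 arrays (adjusted p from 0.0557 to 0.348), and the 48 h call without vehicle replicate 2, DHT 48 h replicate 1 or DHT 48 h replicate 2 (0.0902, 0.0505 and 0.0947). Of 10 other settings, 6 kept the 16 h call and 8 the 48 h call, which was lost with the mean of probe sets (0.27) and without _s_at or _x_at probe sets (0.01). Its 2 dimmer probe sets read -0.09 and 0.15 at 16 h and 0.01 and 0.28 at 48 h, with no call.

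PDIA4 and P4HB, both protein disulfide isomerases that form and reshuffle disulfide bonds, rose at 48 h. PDIA4 read 10.82 and 10.68 with vehicle, 10.71 and 10.73 at 4 h, 10.93 and 10.71 at 16 h, and 11.17 and 11.18 at 48 h (log2 change 0.43 ± 0.10, adjusted p = 0.0217). Its second probe set gave 0.40 at 16 h (adjusted p = 0.075 over all probe sets) and 0.57 at 48 h, where it was called (0.0132). P4HB read 13.49 and 13.48 with vehicle, 13.50 and 13.54 at 4 h, 13.58 and 13.66 at 16 h, and 13.87 and 13.76 at 48 h (0.33 ± 0.09, adjusted p = 0.0424). Both 48 h arrays stood above the other 6 for both genes, but the step from 16 h to 48 h was called for neither (adjusted p = 0.177 and 0.477). The PDIA4 call was lost without either vehicle array (adjusted p = 0.0597 and 0.119) or either 48 h array (0.119 and 0.0967). That of P4HB was lost without either vehicle (0.176 and 0.125), 4 h (0.0746 each) or 48 h array (0.267 and 0.0759). Among 10 other settings, the PDIA4 call was lost when adjusted over all probe sets (0.0537). The P4HB call was lost in 5: with a replicate block (0.0628), only the 2 groups (0.0686), all probe sets (0.0804), no _s_at or _x_at probe sets (0.0573) or the mean of probe sets (0.202).

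The 2 most familiar ER chaperones did not pass the threshold at any single time against vehicle; over the 3 times together the F test called HSP90B1 (adjusted p = 0.0345) and not HSPA5 (0.0619). HSPA5, the HSP70 of the ER and the classical readout of the UPR, read 12.89 and 12.77 with vehicle, 12.53 and 12.66 at 4 h, 12.82 and 12.86 at 16 h, and 12.98 and 13.12 at 48 h. The arrays at 4 h were the lowest and those at 48 h the highest. The log2 change at 48 h was 0.22 (95% interval 0.00 to 0.44, limma adjusted p = 0.219). A dimmer HSPA5 probe set gave 0.06 at 4 h, 0.18 at 16 h and 0.27 at 48 h against vehicle, none called. HSP90B1 (GRP94), the HSP90 of the ER, read 10.73 and 10.71 with vehicle, 10.49 and 10.60 at 4 h, 10.77 and 10.64 at 16 h, and 10.96 and 11.21 at 48 h. Its log2 change at 48 h was 0.36 (interval 0.13 to 0.60, adjusted p = 0.0577), and its other probe set, also of the cross-matching _x_at kind, gave 0.06.

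The other 12 chaperones and folding enzymes spanned log2 changes of -0.22 to 0.36 at 48 h. PDIA6, another disulfide isomerase, had 0.36 (adjusted p = 0.0563), and its 3 further probe sets gave 0.30, 0.31 and 0.38. CALR and CANX, the lectin chaperones of new glycoproteins, had 0.29 and 0.25, MANF, a secreted ER stress factor, 0.25, and PDIA3, the isomerase that works with both lectins, 0.22. TXNDC11, a thioredoxin-domain protein of the ER, had 0.23 and DNAJC3 (p58IPK), a co-chaperone that restrains EIF2AK3, 0.24, with replicates 1.01 apart at 16 h. SDF2L1, HYOU1 and CRELD2, which along with HSPA5 are common markers of ER stress, had 0.06, 0.04 and -0.05. ERO1B, an oxidase that recharges disulfide isomerases, had -0.09, and DNAJB11 (ERdj3), a secreted co-chaperone, -0.22. None of these 12 was called at a single time against vehicle, and PDIA6 alone of them was called by the F test. A dim CANX probe set was called lower at 16 h over all probe sets (-0.70, adjusted p = 0.0181) and gave -0.44 at 48 h, while the other 3 beside the brightest gave 0.31, 0.43 and -0.04 at 48 h.

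**Figure D2:**
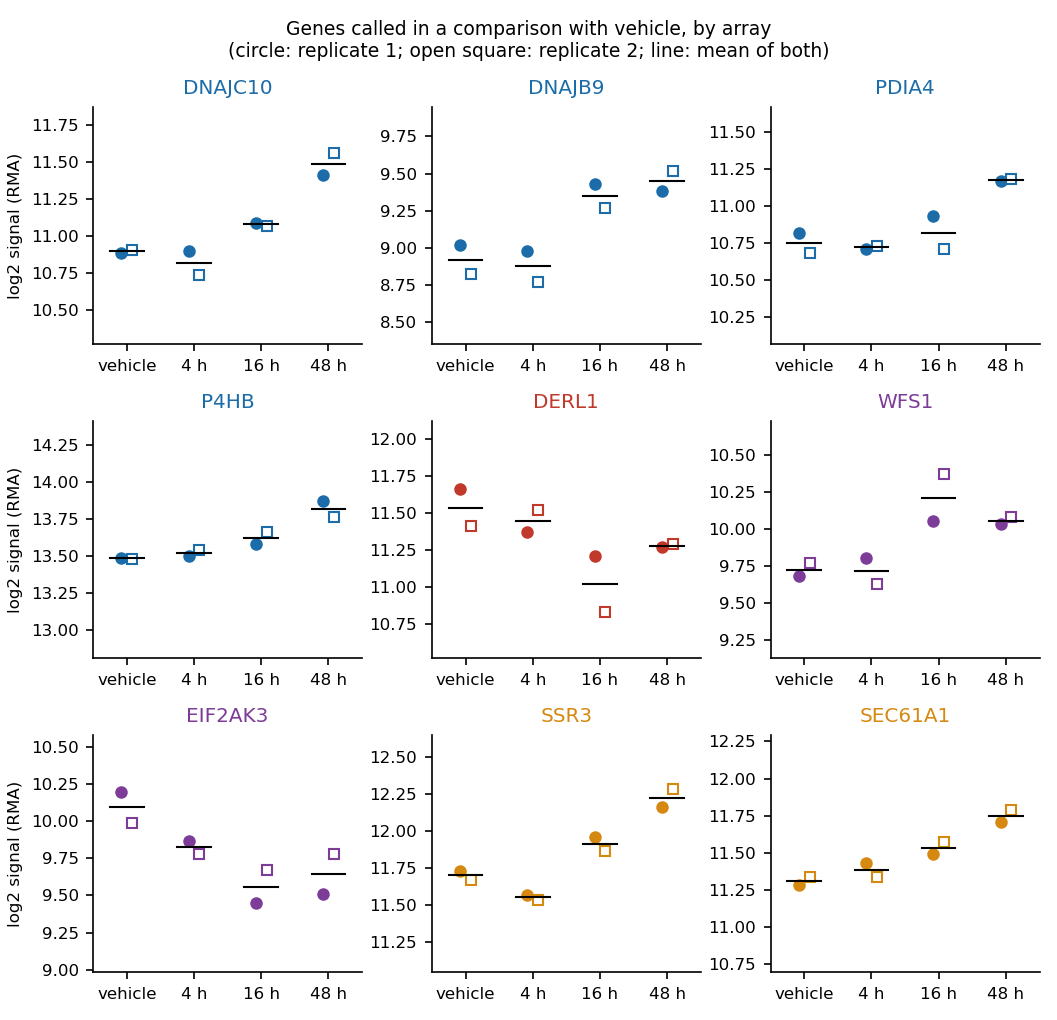
Log2 RMA signal (y axis, 1.6 log2 units in every panel) on each of the 8 arrays for the 9 genes called in at least 1 comparison with vehicle; groups are on the x axis, filled circles are replicate 1, open squares replicate 2 and lines the mean of both. DNAJC10, PDIA4, P4HB, SSR3 and SEC61A1 have both 48 h arrays above the other 6, while EIF2AK3 has both vehicle arrays above the others.

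Promoter sequences are shown because ER stress factors bind short, well-defined motifs in front of genes of this kind. The letters tell which windows hold an exact match, and inexact copies were not searched. The RefSeq table (GRCh38.p14) held windows of 300 bases, 250 before to 50 after an annotated start, for 43 of the 48 genes (57 windows, since some genes have several starts). The letters searched, on both strands, were the ER stress element ERSE (CCAAT and CCACG with 9 bases between), ERSE-II (ATTGG and CCACG with 1 base between, so that both share CCACG), the core of the UPR element (TGACGTG) and a full androgen response element (AGAACA and TGTTCT with 3 bases between). The 200 bases before the start are printed 5′ to 3′ on the gene's strand for HSPA5 (chr9:125241344-125241543, minus strand), HSP90B1 (chr12:103930210-103930409, plus strand) and DNAJC10 (chr2:182716057-182716256, plus strand). Capitals mark ERSE in the first 2, on the reverse strand in the second HSP90B1 match, and the UPR element core, on the reverse strand, in DNAJC10.
HSPA5: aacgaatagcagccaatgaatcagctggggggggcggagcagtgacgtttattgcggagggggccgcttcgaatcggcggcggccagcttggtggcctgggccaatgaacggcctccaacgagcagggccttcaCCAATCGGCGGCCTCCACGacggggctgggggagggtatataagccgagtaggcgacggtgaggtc
HSP90B1: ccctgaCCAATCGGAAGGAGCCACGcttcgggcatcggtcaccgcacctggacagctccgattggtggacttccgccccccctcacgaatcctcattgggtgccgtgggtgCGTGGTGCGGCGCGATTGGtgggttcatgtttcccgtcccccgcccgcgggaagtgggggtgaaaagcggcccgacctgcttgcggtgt
DNAJC10: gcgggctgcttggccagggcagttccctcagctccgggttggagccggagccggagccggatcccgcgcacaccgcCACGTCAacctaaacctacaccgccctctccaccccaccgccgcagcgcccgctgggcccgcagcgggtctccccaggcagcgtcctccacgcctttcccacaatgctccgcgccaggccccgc

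ERSE stood in 9 of the 57 windows (15.8%), of 7 genes, against 0.0769% of all 35116 windows: CALR, CANX, CRELD2, ERO1B, HSP90B1, HSPA5 and PDIA6. The CANX windows with a match overlap and hold the same site, so the share of windows counts that site more than once. ERSE-II stood in 3 windows (5.26%, against 0.0541%), of HERPUD1, HYOU1 and SDF2L1. The UPR element core stood in 7 (12.3%, against 1.97%), of DNAJC10, HYOU1, KDELR3, SEC61A1, SSR3, TXNDC11 and TXNDC5; in HYOU1 it overlapped an ERSE-II match, and in SSR3 it lay before 1 of 3 listed starts. The full androgen element stood in 0 of the 57 windows and 0.00285% of all. At 48 h, where 9.51% of all genes were called, 0 of the 7 genes with ERSE and 0 of the 3 with ERSE-II were. With so few genes, a count of 0 is near that share. Their log2 changes were -0.09 to 0.36 and -0.06 to 0.06. Of the 6 measured genes with the UPR element core, 3 rose (DNAJC10, SSR3 and SEC61A1), where 3.13% of all genes did, and KDELR3 had -0.35. Of the 25 measured genes with a window and no exact match to these motifs, 3 rose and 1 fell, where 3.13% and 6.38% of all genes did. A match is a description of letters and not a binding site, and these counts are too small to compare.

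**Figure D3:**
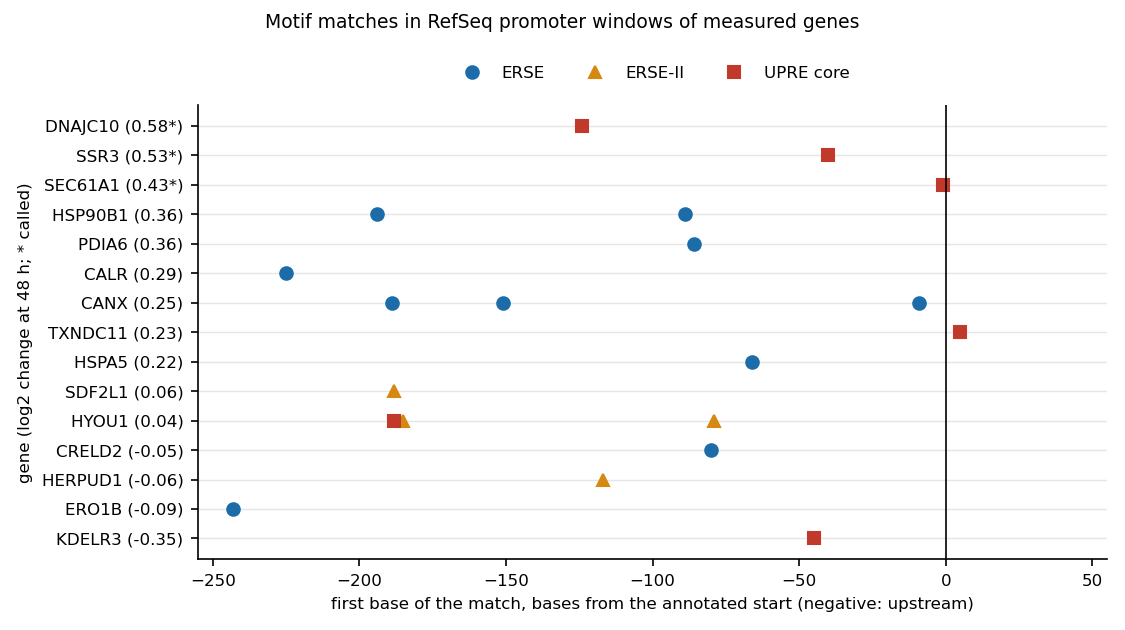
Position of each motif match (x axis, bases from the annotated start, upstream negative) in the promoter windows of measured genes (y axis, ordered by log2 change at 48 h, which stands in brackets with an asterisk where called). The 3 called genes, DNAJC10, SSR3 and SEC61A1, carry the UPR element core (squares), and the ERSE matches (circles) stand before genes with changes of -0.09 to 0.36. The genes with each motif are too few to compare.

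Genes that bring proteins into the ER and glycosylate them held the other 2 genes that rose at 48 h: 2 of 6 were called higher and 0 lower (against 3.13% and 6.38% of all genes), with all 6 log2 changes above 0 and a median of 0.26. SSR3, a subunit of the translocon-associated protein complex, read 11.73 and 11.67 with vehicle, 11.57 and 11.53 at 4 h, 11.96 and 11.86 at 16 h, and 12.16 and 12.28 at 48 h. Its arrays were lowest at 4 h and highest at 48 h, and it rose by 0.53 ± 0.09 on the log2 scale at 48 h (adjusted p = 0.00405), a call that held without each array in turn (adjusted p up to 0.0403). A dimmer SSR3 probe set gave 1.02 and was called over all probe sets (adjusted p = 0.0434); 2 further ones gave 0.49 and 0.07, the last being the only one outside the cross-matching kinds. Read from that one, the call was lost. At 16 h the dimmer probe sets gave, in the same order, -0.53, -0.48 and -0.09 against vehicle, none called. The brightest gave 0.21 at 16 h. SEC61A1, the pore of the translocation channel, read 11.28 and 11.34 with vehicle, 11.43 and 11.34 at 4 h, 11.49 and 11.57 at 16 h, and 11.71 and 11.79 at 48 h (0.43 ± 0.09, adjusted p = 0.0112). The 16 h arrays lay between those of the earlier groups and those at 48 h. Its call was lost without vehicle replicate 1 (adjusted p = 0.0915) or DHT 48 h replicate 1 or 2 (0.0505 and 0.0752), and with the mean of probe sets (0.44, 0.352).

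SSR1, of the same complex as SSR3, had 0.30 at 48 h, SPCS3, a signal peptidase subunit, 0.17, SEC61B, a small channel subunit, 0.15, and STT3A, a catalytic subunit of oligosaccharyltransferase, 0.23, none called. STT3A varied between replicates, at 11.06 and 10.62 with vehicle and 10.88 and 11.27 at 48 h, so its interval ran from -0.14 to 0.60. Vesicle transport and retrieval had 0 of 4 called by limma at each time against vehicle. Of all genes, 0.177%, 6.85% and 9.51% were called at 4 h, 16 h and 48 h. An unadjusted p below 0.05 was found for 1 of the 4 (KDELR3 at 16 h, against 19.9% of all genes). With so few genes, these counts are near those shares. At 48 h the COPII coat genes SEC23B, SEC31A and SEC24D had 0.22, 0.02 and 0.05. KDELR3, a receptor that returns escaped chaperones to the ER, had -0.56 at 16 h and -0.35 at 48 h; without DHT 16 h replicate 2 the first value was -0.16. A dimmer KDELR3 probe set gave -0.57 at 48 h and was called over all probe sets (adjusted p = 0.0449).

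Of the 9 degradation genes, 1 was called at 16 h, lower (11.1%, against 4.3% of all genes), and 4 had an unadjusted p below 0.05, all lower (44.4%, against 19.9% in either direction), with a median log2 change of -0.12. At 48 h, 0 of 9 were called by limma (against 9.51%) and 0 had an unadjusted p below 0.05 (against 22%). With so few genes, a count of 0 higher is near the share of all genes at both times. DERL1, a membrane protein through which misfolded chains leave the ER, read 11.66 and 11.41 with vehicle, 11.37 and 11.52 at 4 h, 11.21 and 10.83 at 16 h, and 11.27 and 11.29 at 48 h. The 16 h arrays were the lowest, and the fall of 0.51 on the log2 scale (SE 0.13, adjusted p = 0.042) was called. Without DHT 16 h replicate 2, whose value was the lower of the pair, the change was -0.32 (adjusted p = 0.242). The call was also lost without vehicle replicate 1 (-0.38, 0.307), either 4 h array (0.0645 each) or either 48 h array (0.0705 each), and other DERL1 probe sets gave -0.31, -0.15 and 0.13 at 16 h. Of 10 other settings 4 kept it, and it was lost with quantile normalization (0.0726), equal housekeeping signal (0.0607), the mean of probe sets (-0.21), no _s_at or _x_at probe sets (-0.15), all probe sets (0.103) and only the 2 groups (0.124).

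EDEM3 and EDEM1, mannosidase-like proteins that mark glycoproteins for degradation, had -0.41 and -0.12 at 16 h, and EDEM2 -0.03; without DHT 16 h replicate 2 the EDEM3 value was -0.19. SEL1L, the scaffold of the main ubiquitin ligase of the ER, had -0.26 and SELENOS, a selenoprotein that recruits the extracting ATPase, -0.22. HERPUD1, a strongly UPR-induced part of the same ligase complex, read 0.06 at 16 h and -0.06 at 48 h. DERL2 and DERL3, relatives of DERL1, read -0.01 and 0.10 at 16 h, and -0.03 and 0.10 at 48 h.

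Among the sensors, EIF2AK3 fell while the other 2 were not called. EIF2AK3 (PERK), the kinase that slows translation under ER stress, read 10.20 and 9.99 with vehicle, 9.87 and 9.78 at 4 h, 9.45 and 9.67 at 16 h, and 9.51 and 9.78 at 48 h. Both vehicle arrays exceeded all 6 DHT arrays, and it fell by 0.53 (SE 0.12, adjusted p = 0.0243) at 16 h and by 0.45 (SE 0.12, adjusted p = 0.0436) at 48 h. Without vehicle replicate 1, the highest of the 8, the changes were -0.43 and -0.34 (adjusted p = 0.212 and 0.307). The 16 h call was also lost without DHT 16 h replicate 1 (0.103), and the 48 h call without vehicle replicate 2 (0.0505), either 4 h array (0.0707 each) or DHT 48 h replicate 1 (0.347). Of 10 other settings, 7 kept the 16 h call and 4 the 48 h call. The first was lost with the mean of probe sets (-0.26, 0.115), all probe sets (0.0702) and only the 2 groups (0.0593). The second was lost with these (-0.18 and 0.28, 0.1, and 0.0518), quantile normalization (0.0502), a replicate block (0.0581) and no _s_at or _x_at probe sets (0.0541). A dim second probe set gave 0.00 and 0.10.

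ERN1 (IRE1), the kinase and nuclease that splices XBP1 mRNA, read 9.01 and 8.94 with vehicle, 9.26 and 9.20 at 4 h, 9.09 and 9.44 at 16 h, and 9.21 and 9.31 at 48 h. All 6 DHT arrays were above both vehicle arrays, with log2 changes of 0.25, 0.29 and 0.28 at 4 h, 16 h and 48 h, none called (adjusted p = 0.653, 0.187 and 0.176). Without DHT 16 h replicate 2, the higher of its pair, the 16 h change was 0.12, and 2 dimmer probe sets gave 0.03 and -0.04 at 48 h. ATF6, the sensor cut in the Golgi to free a transcription factor, read 9.74 and 9.83 with vehicle, 9.94 and 9.90 at 4 h, 9.87 and 9.80 at 16 h, and 9.94 and 9.94 at 48 h. Its groups at 16 h and vehicle overlapped, and the change at 48 h was 0.15 (interval -0.04 to 0.35).

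WFS1 (wolframin), an ER membrane protein that dampens ATF6, rose at 16 h. It read 9.68 and 9.77 with vehicle, 9.80 and 9.63 at 4 h, 10.05 and 10.37 at 16 h, and 10.03 and 10.08 at 48 h, so the 4 later arrays were all above the 4 earlier ones. The log2 change was 0.48 ± 0.12 at 16 h (adjusted p = 0.0299) and 0.33 at 48 h (adjusted p = 0.118), and the step from 4 h to 16 h was called (0.50 ± 0.12, adjusted p = 0.0436). Its second probe set gave 0.46 and 0.31. Without DHT 16 h replicate 2 the 16 h change was 0.32 (adjusted p = 0.179), and the call was also lost without vehicle replicate 1 or 2 (0.198 and 0.0735) or either 48 h array (0.0521 each). The step from 4 h was lost without any array but DHT 16 h replicate 1 (adjusted p up to 0.309). Of 10 other settings, 8 kept the 16 h call, lost over all probe sets (0.0774) and with only the 2 groups (0.0915), and 5 kept the step from 4 h.

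**Figure D4:**
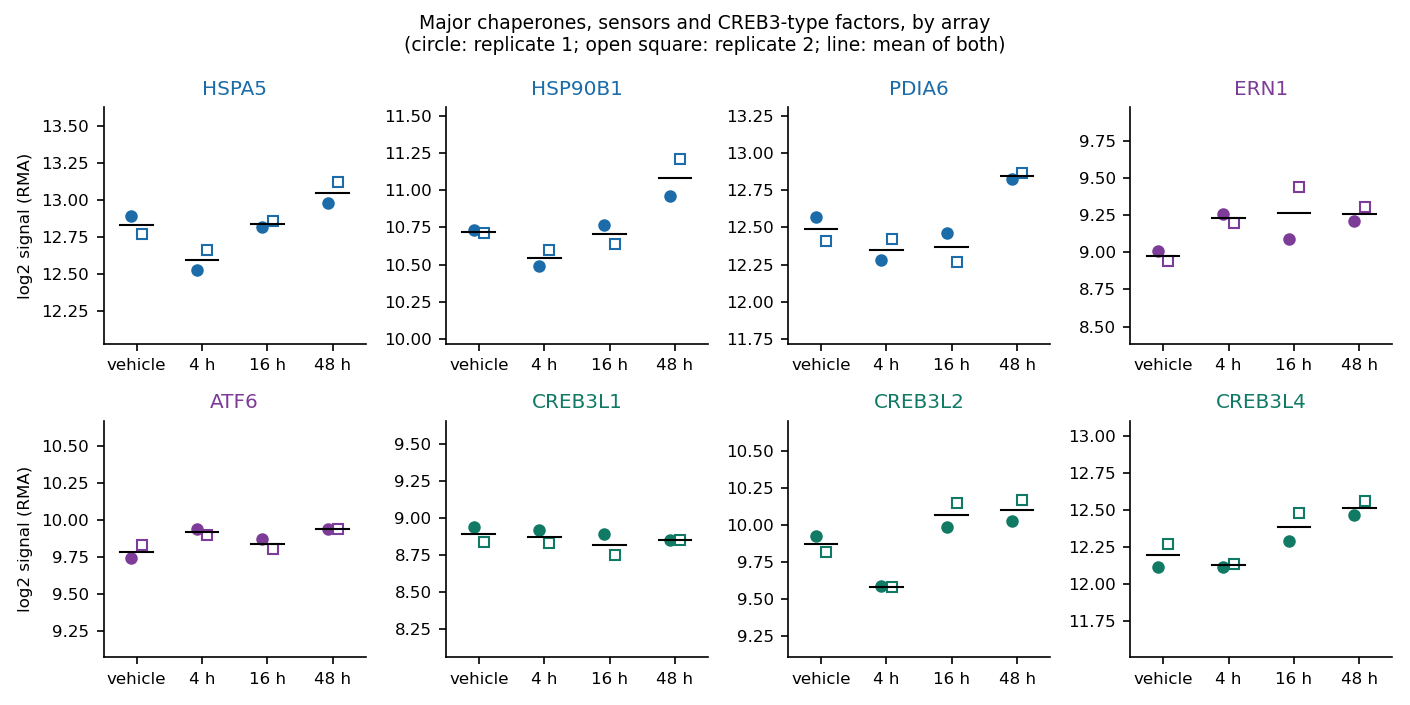
Log2 RMA signal (y axis, 1.6 log2 units in every panel) on each of the 8 arrays for HSPA5, HSP90B1, PDIA6, the sensors ERN1 and ATF6 and the 3 CREB3-type factors; groups are on the x axis, filled circles are replicate 1, open squares replicate 2 and lines the mean of both. None of these was called at a single time against vehicle; CREB3L2 is lowest at 4 h, at 9.59 and 9.58, and CREB3L1 stays between 8.75 and 8.94.

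None of the 3 CREB3-type factors was called by limma at a single time against vehicle. Of all genes, 0.177%, 6.85% and 9.51% were called at 4 h, 16 h and 48 h, and 0 of 3 is near these shares. An unadjusted p below 0.05 was found for 1 at 4 h, 0 at 16 h and 2 at 48 h. The shares of all genes were 7.84%, 19.9% and 22%. CREB3L2, which drives COPII coat genes in secretory cells, read 9.93 and 9.82 with vehicle, 9.59 and 9.58 at 4 h, 9.99 and 10.15 at 16 h, and 10.03 and 10.17 at 48 h. Both 4 h arrays were below all 6 others, and the step from 4 h to 16 h was called (0.49 ± 0.10, adjusted p = 0.0232). That call was lost without either 4 h array (adjusted p = 0.172 and 0.154) or DHT 16 h replicate 2 (0.131), and in 4 of 10 other settings (adjusted p up to 0.809). Its 2 dimmer probe sets showed 0.10 and 0.07 against vehicle at 16 h and 0.00 and 0.00 at 4 h. CREB3L4 (AIbZIP), an androgen-induced factor of prostate cells, read 12.12 and 12.27 with vehicle, 12.12 and 12.14 at 4 h, 12.29 and 12.48 at 16 h, and 12.47 and 12.56 at 48 h. The 4 later arrays exceeded the 4 earlier ones, with a log2 change at 48 h of 0.32 (interval 0.10 to 0.55, adjusted p = 0.0714). CREB3L1 (OASIS), which promotes collagen secretion in bone, read 8.94 and 8.84 with vehicle, 8.92 and 8.83 at 4 h, 8.89 and 8.75 at 16 h, and 8.85 and 8.85 at 48 h, and its groups overlapped at every time.

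The DHT times were also compared with each other directly. From 4 h to 16 h, 3 of 44 genes rose (6.82%, against 1.28% of all genes), DNAJB9, WFS1 and CREB3L2, and 0 fell (1.77% of all genes), where 3.05% of all genes were called either way and 15 of the 44 had an unadjusted p below 0.05 (34.1%, against 14.3%). From 16 h to 48 h, 0 of 44 were called by limma (0.829% of all genes, 0.349% higher and 0.48% lower), while 11 had an unadjusted p below 0.05, all higher (25%, against 10.7% in either direction). PDIA6 came closest (log2 change 0.49, adjusted p = 0.0655), followed by DNAJC10 (0.40, adjusted p = 0.104). With dim genes left out, 4 of 43 were called from 4 h to 16 h, against 7.63% of the genes kept. From 16 h to 48 h it was 1 of 43, against 2.04%. Without DHT 16 h replicate 1, 3 genes rose and 4 fell from 4 h to 16 h, with 2 of the 3 calls kept, and 4 rose from 16 h to 48 h. The count of calls from 4 h to 16 h was 0 without either 4 h array or without DHT 16 h replicate 2, and 1 without any of the 4 vehicle and 48 h arrays.

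**Figure D5:**
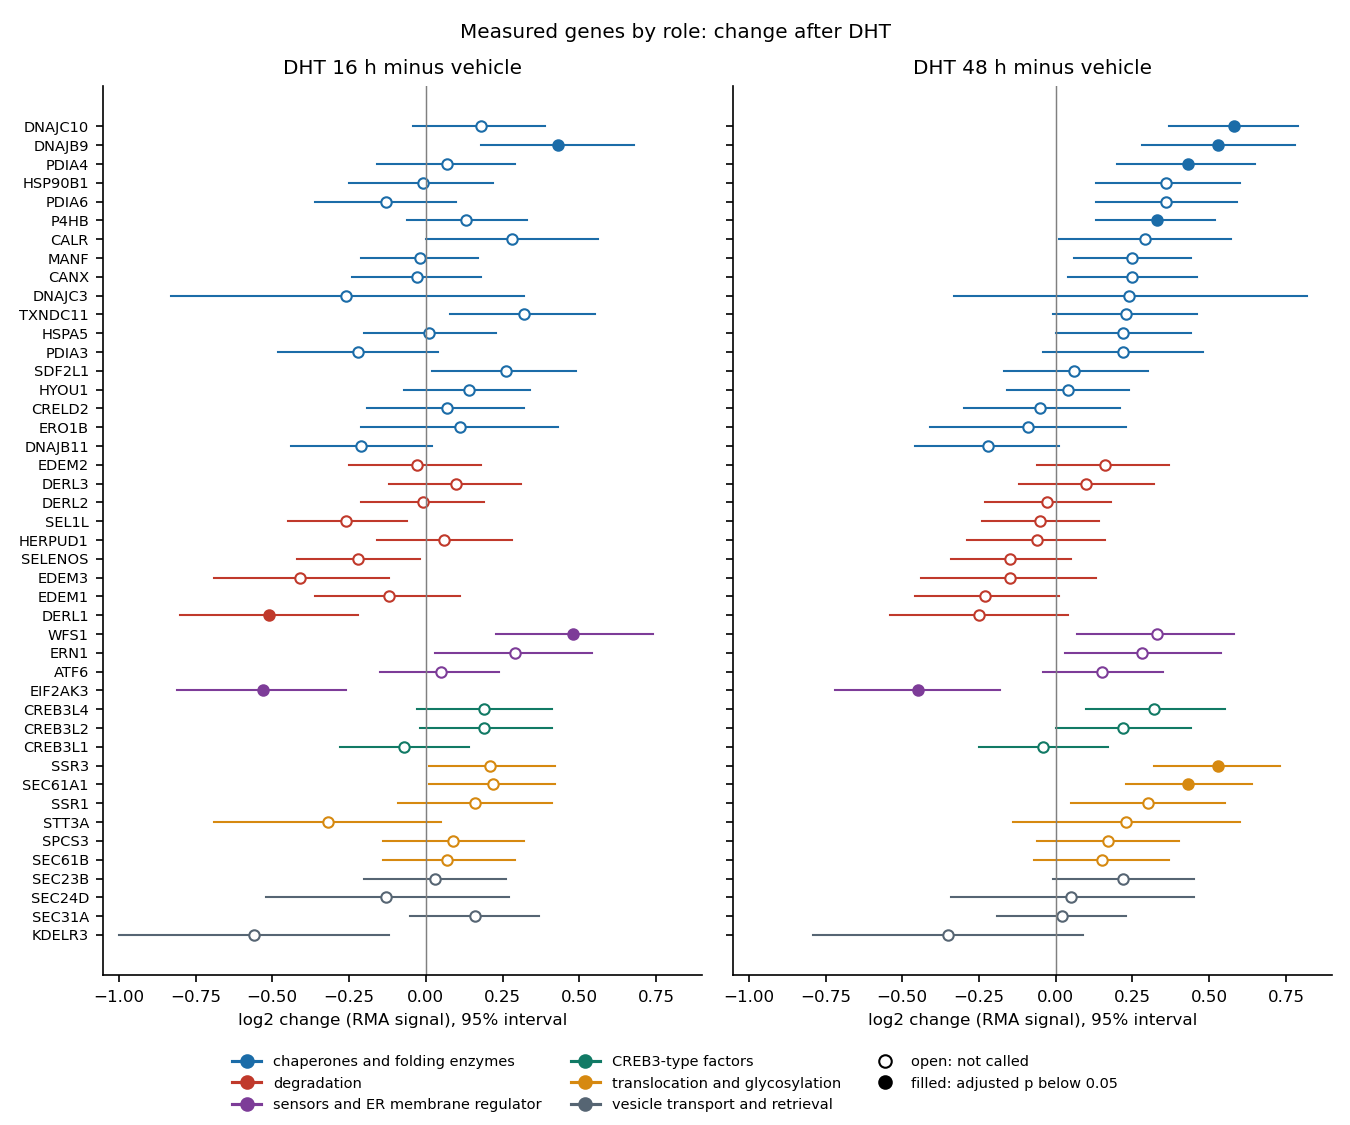
Log2 change from vehicle (x axis) at 16 h (left) and 48 h (right) for the 44 measured genes (y axis), coloured by role, with 95% intervals from limma as lines; filled points were called at adjusted p below 0.05. At 48 h the 6 genes that rose are chaperones or translocation genes, with changes of 0.33 to 0.58, and EIF2AK3, at -0.45, is the 1 that fell.

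Further genes of the same pathway, 120 measured of 124 listed, gave 7 higher (5.83%) and 5 lower (4.17%) at 48 h, against 3.13% and 6.38% of all genes, with a median log2 change of 0.06. Other folding genes rose in 5 of 28 cases (17.9%, against 3.13%) and fell in 1 (3.57%, against 6.38%). SIL1, the nucleotide exchange factor of HSPA5, rose by 1.07 ± 0.11 on the log2 scale at 48 h (adjusted p = 0.000123), from 9.68 on both vehicle arrays to 10.72 and 10.78, and ERO1A, an oxidase that recharges disulfide isomerases, by 0.80 ± 0.10 (adjusted p = 0.000406). MLEC, a lectin of new glycoproteins (0.65), UGGT1, which re-tags misfolded glycoproteins (0.59), and QSOX1, a sulfhydryl oxidase (0.36), also rose; these 3 were named after their values were seen. AGR2, a disulfide isomerase of mucus-secreting cells, fell by 1.43 on the log2 scale at 48 h.

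UPR signalling genes outside the list had 0 of 18 higher (against 3.13% of all genes) and 2 lower (11.1%, against 6.38%) at 48 h. Those lower were the stress transcription factor CEBPB (-0.48) and TRIB3, a target of ATF4 and DDIT3 (-0.43). With so few genes, both counts are near the shares of all genes. XBP1, the factor made active by ERN1, had -0.09 (interval -0.30 to 0.13), ATF4 -0.10 (-0.34 to 0.15), DDIT3 (CHOP) -0.05 (-0.25 to 0.16) and PPP1R15A (GADD34), which restores translation, -0.13 (-0.33 to 0.06). The arrays read total XBP1 signal and not its splicing. Further translocation and glycosylation genes had 1 of 23 higher (4.35%), the oligosaccharyltransferase subunit RPN2 (0.41), and 1 lower (4.35%), SEC61A2 (-0.38). Vesicle transport had 1 of 33 higher (3.03%), the cargo receptor LMAN1 (0.33). Degradation had 1 of 18 lower (5.56%), UFD1, which helps to extract misfolded chains (-0.41). These counts too are near the shares of all genes, 3.13% higher and 6.38% lower.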

How the data were processed

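Log2 signals of 8 arrays were used as the authors deposited them; per the submitters' processing notes they come from RMA (version not given in the sources used here), which subtracts background, quantile-normalizes and summarises probes, and can compress small changes. Of 54675 probe sets, 41091 carried exactly 1 symbol; the brightest on average stood for each of 19775 genes. All 4 groups were fitted together in limma 3.58.1 (R 4.3.3), with 4 residual and 7.21 prior degrees of freedom, and p-values were adjusted by Benjamini-Hochberg over 19775 genes. "Called", "rose" and "fell" mean an adjusted p below 0.05. The fit was tested on simulated data. Genes named in full were those called, the sensors, the CREB3-type factors and the best-known chaperones; outside the list, the strongest calls and XBP1, ATF4, DDIT3 and PPP1R15A. Members and lists were chosen with earlier results of these data known. The labels call replicates biological without naming separate cultures, so p-values rest on the spread between these samples, moderated over all genes. Same-numbered arrays did not deviate together (correlations -0.244 to 0.196), so numbers were not taken as pairs. Alternatives covered scaling, probe-set choice, moderation, a replicate block and each array left out. Precision is limited by 2 arrays per group.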

Additional observations from a re-analysis of the deposited data

Results flagged for a closer look

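For 3 genes the change under DHT differed between times by a direct test. Against DHT 4 h, the log2 signal at DHT 16 h was higher by 0.48 for DNAJB9, by 0.50 for WFS1 and by 0.49 for CREB3L2 (adjusted p = 0.0494, 0.0436 and 0.0232 by limma). Both 16 h arrays lay above both 4 h arrays for each gene. DHT 16 h replicate 2 was among the arrays without which each of the 3 calls was lost, and its part in them was not tested beyond that.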

How the results depend on the processing

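The counts of called genes were sensitive to the processing, and the cause was not tested. Against 4 at 16 h, 1 gene was called with the mean of all probe sets, 0 when adjusted over all probe sets and 0 when only the 2 groups compared were fitted. Against 7 at 48 h, 4 were called without _s_at or _x_at probe sets (36 genes measured), 4 over all probe sets and 11 with a trend in the prior variance. From 4 h to 16 h, 3 calls became 0 with the mean of probe sets, without _s_at or _x_at probe sets, over all probe sets and with only the 2 groups. From 16 h to 48 h, 0 became 1 when dim genes were left out, with the mean of probe sets and with the trend. The F test's 9 became 14 without dim genes, 3 over all probe sets and 15 with the trend. With the replicate number as a block, the counts were 4 at 16 h, 5 at 48 h, 1 from 4 h to 16 h and 8 by the F test; this replicate block takes up numbers that did not pair the samples. Leaving out 1 array gave 0 to 7 calls at 16 h, 2 to 10 at 48 h, 0 to 7 from 4 h to 16 h, 0 to 4 from 16 h to 48 h and 2 to 16 by the F test. At 4 h the count was 0 under every alternative run. Quantile normalization gave 3, 10, 3, 0 and 12, and equal housekeeping signal 3, 10, 3, 0 and 9, in the same order as the leave-one-array-out counts.

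Of 858 log2 changes of single genes under alternatives, 33 changed sign. The called one among them was DNAJB9 at 16 h, which read -0.09 from a dimmer probe set outside the _s_at and _x_at kinds. The others were not called. Without _s_at or _x_at probe sets, PDIA4 at 4 h had 0.04, CREB3L2 at 4 h 0.00 and SSR3 at 16 h -0.09. With the mean of probe sets, PDIA4 at 4 h had 0.00, WFS1 at 4 h 0.09, CREB3L1 0.00 at 4 h and 0.02 at 16 h, and at 16 h P4HB had -0.00, SEC61A1 -0.10 and SSR3 -0.22. With equal housekeeping signal, HSP90B1 at 16 h had 0.04, and at 4 h PDIA4 had 0.02, DNAJB9 0.00, WFS1 0.03 and CREB3L1 0.03; quantile normalization gave 0.00 for HSP90B1 at 16 h and 0.00 for WFS1 at 4 h. With 1 array left out, values that crossed 0 ranged as follows: HSPA5 at 16 h from -0.05 to 0.07, HSP90B1 at 16 h from -0.08 to 0.05, PDIA4 at 4 h from -0.09 to 0.04, PDIA4 at 16 h from -0.04 to 0.18, DNAJB9 at 4 h from -0.15 to 0.06, DERL1 at 4 h from -0.21 to 0.04, ATF6 at 16 h from -0.00 to 0.10, WFS1 at 4 h from -0.10 to 0.07, CREB3L1 at 4 h from -0.07 to 0.03, CREB3L1 at 48 h from -0.09 to 0.01, CREB3L4 at 4 h from -0.14 to 0.01. With 2 arrays per group, no single size of log2 change divided called from uncalled genes. At 48 h P4HB was called at 0.33 and HSP90B1 was not at 0.36. At 16 h DNAJB9 was called at 0.43 and KDELR3 was not at -0.56.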
